A study of Mus musculus with 17 samples.

Results

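The genes described here were 10 marker genes of the inhibitory interneurons of the cortex: Gad1, Gad2, Slc32a1, Pvalb, Sst, Vip, Lhx6, Adarb2, Lamp5 and Reln. They were taken by symbol from a table of 55453 distinct gene symbols measured by RNA-seq in mouse cortex. Each of the 10 had 1 entry in the table, and all 10 passed the filter on low values, which asked for a mean of 1 or more TPM (transcripts per 1000000 transcripts) over the 17 mice. The study modelled a neurodevelopmental disorder caused by mutations in the RNA-binding protein hnRNPH2, and set gene expression in mice with a null or mutated gene beside that of controls. All mice were males of the C57BL/6J strain, and RNA came from bulk tissue of the dissected cortex.

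Hemizygous Hnrnph2 KO mice, here KO, and hemizygous Hnrnph2 R206W mice were sampled at 8 weeks, with 3 mice each. Hemizygous Hnrnph2 P209L mice were sampled at 3 weeks, also with 3 mice. Each line had wild-type controls of its own and of the same age, with 3 mice for KO, 3 for R206W and 2 for P209L. The KO allele is an insertion or deletion that shifts the reading frame and ends it early, and the R206W and P209L alleles were knocked into the mouse gene itself. The alleles were therefore present in every cell of a hemizygous male, interneurons included, and were not restricted to a cell type. The P209L line was the only line sampled at 3 weeks, so line and age cannot be told apart in any comparison between the ages. Nothing in the labels ties mice to litters. The p-values given with limma set a difference against the spread between mice within groups, estimated over all 6 groups and both ages together.

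Cortical interneurons are the local neurons that release GABA, the main inhibitory transmitter of the brain. They are made outside the cortex, in the ganglionic eminences of the embryonic forebrain, and migrate into it. Cells from the medial eminence keep the transcription factor Lhx6 and become the PV class, with the calcium buffer parvalbumin, or the SST class, with the neuropeptide somatostatin. Cells from the caudal eminence include the VIP class, with vasoactive intestinal peptide, and most of the LAMP5 class, and carry Adarb2. In bulk tissue, fewer cells of a type and less RNA per cell cannot be told apart.

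The upstream sequence is shown for 3 members: Gad2 and Vip, which lead comparisons below, and Sst, the most abundant of the 10. These 3 hold a short motif before their start site. The Vip line gives the 120 bases upstream of the RefSeq start on GRCm38.p6, and the Gad2 and Sst lines give 30 bases around the motif, each 5′ to 3′ on the strand of the gene. Capitals mark the cyclic AMP response element, TGACGTCA, or its half-site, TGACG or CGTCA, the letters recognised by CREB, a factor activated in stimulated neurons. The Gad2 stretch is chr2:22622283-22622312 on the plus strand, that of Vip is chr10:5639098-5639217 on the plus strand and that of Sst is chr16:23890874-23890903 on the minus strand. GENCODE M21 starts Gad2 and Sst further upstream than RefSeq does, and in it both stretches lie in the first exon of the gene.
Gad2: catttcccttcCGTCActctctcatctccc
Vip: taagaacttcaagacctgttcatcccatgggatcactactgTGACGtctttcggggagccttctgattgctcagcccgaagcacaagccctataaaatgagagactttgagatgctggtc
Sst: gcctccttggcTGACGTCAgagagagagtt
Sst held the full element, starting at position -48 from the RefSeq start, Vip held a half-site at position -79 and Gad2 a half-site at position -33. Windows of the 250 bases before a start were searched on both strands for the element and its half-site, and every full element also counts as a half-site. The full element stood in 508 of 32851 such windows of the genome (1.55%) and the half-site in 5836 (17.8%). Of the 14 windows of the 10 members, 1 held the full element and 3 held a half-site, those of Gad2, Sst and Vip, a share near that of all windows. The core of a TATA box, TATAAA, searched on the strand of the gene only, was found in 7.59% of all windows and, among the members, only in that of Vip. A match is only a match of letters, and binding was not measured.

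The targeted gene, Hnrnph2, lies on chromosome X of GRCm38 from 134601179 to 134607060. It was at 23.5, 21.3 and 24.4 TPM in the KO mice and at 80.5, 145 and 139.7 TPM in their controls. Its log2 difference was -2.30 (SE 0.17) with an adjusted p = 8.64e-06 in limma, the only gene called in KO, and it lost the call when only the KO line was fitted (adjusted p = 0.0828). It lay between 135 and 160.4 TPM in R206W mice and between 84.5 and 103 TPM in P209L mice, overlapping the controls in both lines. One library stood apart before any comparison, that of KO control 1. Its mitochondrial transcripts took 20.1% of TPM against 10.7% to 15.4% in the other 16 mice, and the share of the 10 most abundant genes was 36.5%, with a range of 19.4% to 29.3% in the others. The tissue had the markers of cortex: Slc17a7, the vesicular glutamate transporter of cortical excitatory neurons, lay between 495 and 912 TPM. Markers of hypothalamus, Cajal-Retzius cells and skeletal muscle other than Acta1 and Mylpf stayed at or under 1.07 TPM in every mouse. The cerebellar genes Pcp2, Gabra6 and Cbln3 were at 2.18, 3.08 and 3.16 TPM in KO 1 and at or under 0.58 TPM elsewhere. Of the further cerebellar genes examined, Car8 was also highest in KO 1, at 10.5 TPM against 5.69 to 9.53 TPM in the others. Calb1, at 89.8 TPM in KO 1, was inside the range of the other mice, 59.7 to 103 TPM.

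Sst was the most abundant of the 10 genes per unit of transcript length, with a mean of 387 TPM over the 17 mice, followed by Lamp5 with 300.0 TPM, Gad1 with 145 TPM and Pvalb with 108 TPM. Vip, Gad2, Reln and Slc32a1 had means of 59.5, 42.8, 31.4 and 29.98 TPM, and Lhx6 and Adarb2, which encode a transcription factor and an RNA-editing relative, had 9.81 and 6.45 TPM. In this order of mean levels, Slc32a1 and Lhx6 were the only neighbours whose ranges over mice did not overlap. Within a mouse, Sst was higher than Lamp5, and Lamp5 higher than Gad1, in 17 of 17 mice. Among the 6 controls of 8 weeks, Pvalb had a coefficient of variation of 6.39% and Slc32a1 one of 28.4%, the narrowest and the widest of the 10. Without KO control 1 these were 6.31% and 8.32%, and all 10 lay between 6.16% (Sst) and 10.6% (Gad1).

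**Figure D1:**
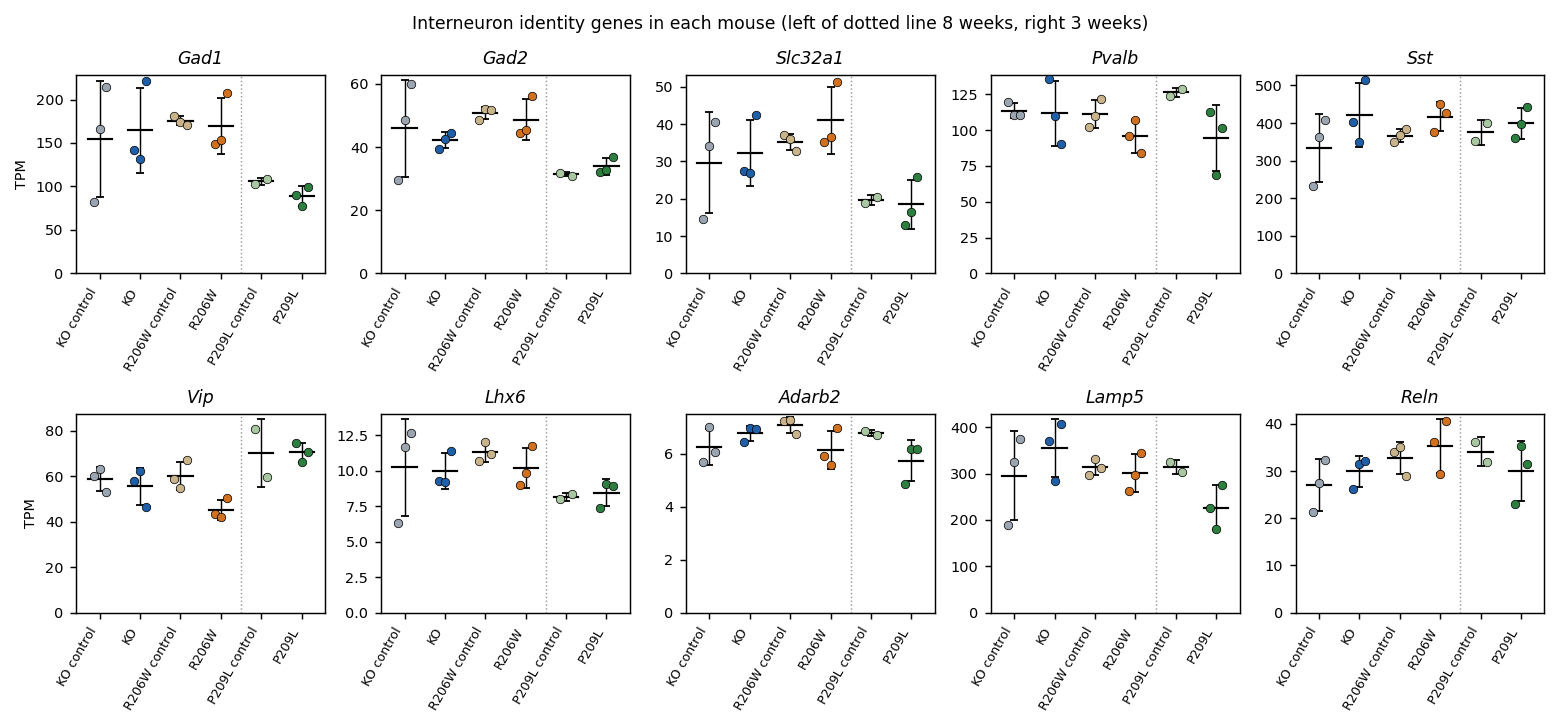
Level of each interneuron identity gene in TPM (vertical axes, starting at 0) in every mouse, by group; each point is 1 mouse, horizontal lines are group means and bars are SD, with n = 3 mice per group and 2 for P209L controls. KO control 1 is the lowest 8-week control for Gad1, Gad2, Slc32a1, Sst, Lhx6, Lamp5, Reln and Adarb2 but not for Pvalb or Vip, and the 5 mice of 3 weeks lie at the low end for Gad1, Gad2 and Slc32a1.

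The first group comprised the genes of the GABA system that every interneuron class uses. Gad1 (ENSMUSG00000070880.10, chromosome 2, 70553072 to 70602014, plus strand, GRCm38) encodes GAD67, which makes most of the GABA of the brain. Its level was 82.1, 167 and 215 TPM in KO controls and 142, 131 and 221 TPM in KO mice. It was 181, 175 and 171 TPM in R206W controls and 149, 153 and 207 TPM in R206W mice. At 3 weeks it was 103 and 109 TPM in P209L controls and 89.9, 77.0 and 99.5 TPM in P209L mice. The KO and R206W values overlapped those of their controls, whereas all 3 P209L mice were below both P209L controls. The log2 difference, on the scale of log2(TPM + 1), was 0.16 (SE 0.27) in KO, -0.06 (SE 0.27) in R206W and -0.26 (SE 0.30) in P209L. None passed the test (adjusted p = 0.999, 1 and 0.936 in limma), and the KO value turned to -0.24 without KO control 1.

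Gad2 (ENSMUSG00000026787.3, chromosome 2, 22622205 to 22693874, plus strand), whose half-site before the RefSeq start is printed above, encodes GAD65, the synthesising enzyme found mainly at terminals. It was at 29.4, 48.5 and 60 TPM in KO controls and 39.5, 42.7 and 44.4 TPM in KO mice. R206W controls had 48.5, 52.0 and 51.6 TPM and R206W mice 44.3, 45.6 and 56.1 TPM. P209L controls had 31.8 and 30.9 TPM and P209L mice 31.98, 32.7 and 36.9 TPM. The 3 P209L mice lay just above their 2 controls, with 31.98 against 31.78 TPM at the nearest pair, and the KO and R206W groups overlapped their controls. The log2 differences were -0.06 (SE 0.18) in KO, -0.07 (SE 0.18) in R206W and 0.11 (SE 0.20) in P209L. Without KO control 1 the KO mice lay below both remaining controls, with a log2 difference of -0.35 that did not pass either (adjusted p = 0.41 in limma). Slc32a1 (ENSMUSG00000037771.11, chromosome 2, 158610767 to 158615748, plus strand) encodes VGAT, which loads GABA into synaptic vesicles. It ran from 14.5 to 40.5 TPM in KO controls, 26.9 to 42.4 TPM in KO mice, 32.7 to 37.0 TPM in R206W controls and 35.3 to 51.4 TPM in R206W mice. It was at 18.7 and 20.6 TPM in P209L controls and at 13.0, 16.6 and 25.9 TPM in P209L mice. Each mutant group overlapped its controls, with log2 differences of 0.21, 0.20 and -0.14 in the 3 lines (SE 0.31, 0.31 and 0.34). The KO difference of Slc32a1 was -0.23 (SE 0.24) without KO control 1.

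The ratio of Gad1 to Gad2 within a mouse does not move with the scale of a library. It was 2.81, 2.36 and 2.69 in P209L mice and 3.24 and 3.52 in their controls, so the groups did not overlap. The difference of log2 ratios was -0.37, with an exact two-sided permutation p = 0.2, the smallest that 3 mice against 2 allow, and an adjusted p = 0.49 over 32 comparisons of ratios. In KO mice the ratio ran from 3.07 to 4.98 and in R206W mice from 3.36 to 3.69, and both overlapped their controls.

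The second group marked the cells of the medial eminence. Lhx6 (ENSMUSG00000026890.19, chromosome 2, 36081953 to 36105408, minus strand), the transcription factor that these cells keep, ran from 6.33 to 12.7 TPM over all 17 mice. Its log2 differences were 0.01 (SE 0.19) in KO, -0.14 (SE 0.19) in R206W and 0.04 (SE 0.21) in P209L, and all 3 mutant groups overlapped their controls. Without KO control 1 the KO value was -0.27 (adjusted p = 0.47 in limma), with the 3 KO mice at 9.27, 9.20 and 11.4 TPM below the remaining controls at 11.7 and 12.7 TPM.

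Sst (ENSMUSG00000004366.4, chromosome 16, 23889573 to 23890958, minus strand), which carries the full cyclic AMP response element shown above, encodes the peptide of the SST class. It was at 233, 362 and 408 TPM in KO controls and 402, 349 and 515 TPM in KO mice. R206W controls had 348, 367 and 384 TPM and R206W mice 376, 449.6 and 426 TPM. P209L controls had 352 and 399 TPM and P209L mice 359.5, 398 and 442 TPM. The groups overlapped in each line, although the highest single values were in mutant mice. The log2 difference was 0.36 (SE 0.18) in KO, 0.18 (SE 0.18) in R206W and 0.09 (SE 0.20) in P209L, with adjusted p = 0.999, 1 and 0.982 in limma. Without KO control 1 the KO difference was 0.12.

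Pvalb (ENSMUSG00000005716.16, chromosome 15, 78191114 to 78206400, minus strand) encodes parvalbumin, the calcium buffer of fast-spiking interneurons. It was at 119.6, 110.3 and 111 TPM in KO controls and 135, 109.6 and 89.99 TPM in KO mice. R206W controls had 102, 109.8 and 122 TPM and R206W mice 95.9, 107 and 84.2 TPM. P209L controls had 124 and 129 TPM and P209L mice 113, 68.3 and 102 TPM. The 3 P209L mice were all below both controls, while KO and R206W mice overlapped theirs. The log2 difference in P209L was -0.45 (SE 0.19, 95% interval -0.86 to -0.05), with an unadjusted p = 0.0316 in limma. It did not pass after adjustment (adjusted p = 0.603), and leaving out 1 mouse at a time gave values from -0.59 to -0.24, the smallest without P209L 2. The other lines had log2 differences of -0.04 (SE 0.17) and -0.22 (SE 0.17). Purkinje cells and interneurons of the cerebellum also express Pvalb. KO 1, the mouse highest for Pcp2, Gabra6, Cbln3 and Car8 but not for Calb1, had the highest Pvalb of all 17 mice. Without KO 1 the KO difference was -0.19, and the part of the cerebellar genes in the level of Pvalb was not tested.

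The third group marked the cells of the caudal eminence and the neurons of layer 1. Vip (ENSMUSG00000019772.5, chromosome 10, 5639218 to 5647617, plus strand), with its half-site and TATA box, encodes the peptide of a class that mainly inhibits other interneurons. It was at 60.2, 63.2 and 52.9 TPM in KO controls and 58.0, 62.2 and 46.5 TPM in KO mice. R206W controls had 58.6, 54.8 and 67.0 TPM and R206W mice 43.3, 42.1 and 50.3 TPM. P209L controls had 80.8 and 59.7 TPM and P209L mice 74.6, 66.3 and 70.6 TPM. All 3 R206W mice were below the lowest of their controls, and the other lines overlapped. The log2 difference in R206W was -0.40 (SE 0.14, 95% interval -0.70 to -0.11), with an unadjusted p = 0.01 in limma and an adjusted p = 1. It stayed between -0.48 and -0.32 under all 14 alternatives and passed under 1 of them, with mice weighted by quality (adjusted p = 0.0383). In KO and P209L the log2 differences of Vip were -0.08 (SE 0.14) and 0.02 (SE 0.15). The KO effect minus the R206W effect on Vip was 0.32 (SE 0.19, 95% interval -0.09 to 0.73, adjusted p = 1 in limma), so that the lines were not shown to differ.

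Lamp5 (ENSMUSG00000027270.14, chromosome 2, 136052239 to 136069917, plus strand) encodes a membrane protein of the lysosome family, names a class of interneurons that includes neurogliaform cells, and is also made by some excitatory neurons of the upper layers. It was at 189, 324 and 375 TPM in KO controls and 371, 285 and 407 TPM in KO mice. R206W controls had 297, 332 and 312 TPM and R206W mice 262, 296 and 344 TPM. P209L controls had 324 and 303 TPM and P209L mice 225, 179 and 276 TPM, so that all 3 P209L mice were below both controls. The log2 difference in P209L was -0.49 (SE 0.24, 95% interval -0.9997 to 0.03), and it did not pass (adjusted p = 0.702 in limma). It was 0.30 (SE 0.22) in KO, and 0.01 without KO control 1. In R206W it was -0.07 (SE 0.22), with overlapping groups.

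Adarb2 (ENSMUSG00000052551.16, chromosome 13, 8202866 to 8768747, plus strand) encodes a relative of the RNA-editing enzymes without known editing activity of its own. It had the smallest range, 4.85 to 7.29 TPM over all mice, and lay at 6.85 and 6.69 TPM in P209L controls against 4.85, 6.19 and 6.19 TPM in P209L mice. Those groups did not overlap, with a log2 difference of -0.21 (SE 0.13, adjusted p = 0.80 in limma). In KO and R206W the log2 differences of Adarb2 were 0.10 (0.045 without KO control 1) and -0.18 (SE 0.11 for both), and the groups overlapped. Reln (ENSMUSG00000042453.14, chromosome 5, 21884454 to 22344702, minus strand) encodes reelin, a secreted glycoprotein that guides cortical layering and is made after birth by interneurons of layer 1 and of the SST class. It ran from 21.3 to 40.7 TPM, overlapped in every line and had log2 differences of 0.16, 0.10 and -0.20 (SE 0.18, 0.18 and 0.20), the first of which was 0.0037 without KO control 1. Reln is also a gene of Cajal-Retzius cells, whose defining markers Trp73, Lhx1, Lhx5 and Ebf3 reached at most 0.28, 0.13, 0.05 and 0.43 TPM.

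Over the 10 members, the test called 0 in KO, 0 in R206W and 0 in P209L, against 0.00615%, 0.0369% and 0.0984% of the 16265 genes tested. At an unadjusted p under 0.05 in limma, 0 members passed in KO, 1 in R206W (Vip) and 1 in P209L (Pvalb), where 4.08%, 2.19% and 7.46% of all genes passed. The groups did not overlap for 0 members in KO, 1 in R206W and 5 in P209L, against 6.25%, 16.2% and 24.9% of all genes. The 5 in P209L were Gad1, Pvalb, Adarb2 and Lamp5, which were lower, and Gad2, which was higher. Without KO control 1 the members apart in KO were Gad2 and Lhx6, 2 of 10 against 25.1% of all genes, and 0 were called, against 0.0307% of all genes. The median log2 difference of the members was 0.13 in KO, -0.07 in R206W and -0.17 in P209L, and all genes tested had medians of 0.06, 0.0096 and 0.02. In KO both medians were below 0 without KO control 1, at -0.04 for the members and -0.06 for all genes.

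**Figure D2:**
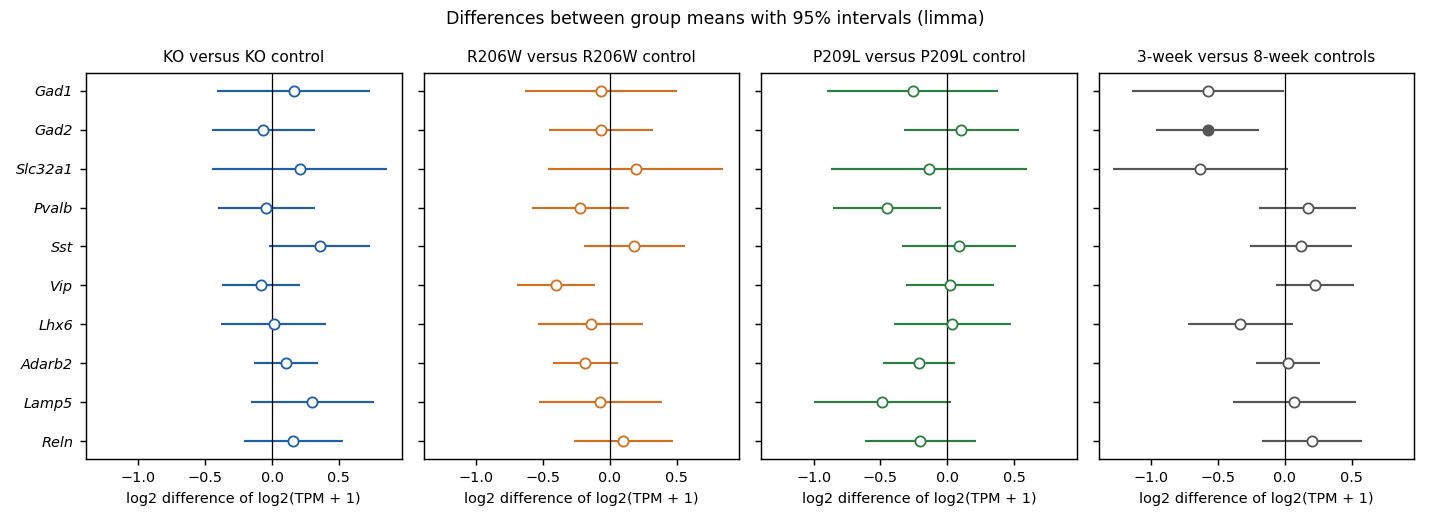
Difference of group means of log2(TPM + 1) for each gene (horizontal axis) with its 95% interval from limma, for KO, R206W and P209L mice against their own controls and for 3-week against 8-week controls. Filled points passed an adjusted p under 0.05, which only Gad2 between the ages did (-0.58). The intervals of Pvalb in P209L (-0.45), Vip in R206W (-0.40) and Gad1 between the ages (-0.58) exclude 0 without passing after adjustment.

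A direct comparison of the KO and R206W effects, both at 8 weeks, called 0 of the 10 members, against 0.0307% of all genes, and 0 had an unadjusted p under 0.05 in limma. The differences of Lamp5, Vip and Adarb2 were 0.37 (SE 0.31), 0.32 and 0.28 (SE 0.16). They were 0.077, 0.34 and 0.23 without KO control 1, and the largest in size was then that of Slc32a1, -0.42 (SE 0.33). The R206W controls and the KO controls, wild-type mice of the same age, also had 0 members called, against 0% of all genes. Of the 10 members, 9 were higher in R206W controls, with a median log2 difference of 0.18, and all genes had a median of 0.13. KO control 1 was the lowest of the 6 for 8 of the members, and without it the median was -0.07 for the members and -0.0014 for all genes.

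The comparison of the P209L controls at 3 weeks with the 8-week controls asked how the genes differed with age, although line cannot be told apart from it. It shares its control mice with the comparisons of the 3 lines, so the values of a gene in them are not independent. Gad2 had a mean of 31.4 ± 0.60 TPM (SD, n = 2) at 3 weeks and of 48.3 ± 10.2 TPM (SD, n = 6) at 8 weeks. Its log2 difference was -0.58 (SE 0.18), and it was the only member to pass (adjusted p = 0.022 in limma). Gad1 had means of 106 ± 4.21 TPM (SD, n = 2) at 3 weeks and 165 ± 44.1 TPM (SD, n = 6) at 8 weeks. The corresponding means of Slc32a1 were 19.7 ± 1.31 TPM (SD, n = 2) and 32.5 ± 9.23 TPM (SD, n = 6). Their log2 differences of -0.58 (SE 0.27) and -0.63 (SE 0.31) did not pass (adjusted p = 0.105 and 0.121 in limma), and neither did that of Lhx6, -0.33 (SE 0.19, adjusted p = 0.173). Pvalb, Sst, Vip, Reln, Lamp5 and Adarb2 had differences of 0.17, 0.12, 0.23, 0.20, 0.07 and 0.02, with adjusted p from 0.213 to 0.901. The call on 1 of 10 members stood against 36.1% of all genes tested, and against 24.8% called lower, and 2 members had an unadjusted p under 0.05 in limma, against 46% of all genes. By the size of the difference, Slc32a1, Gad2 and Gad1 ranked 2998, 3630 and 3652 of 16265 genes, followed by Lhx6 at 7625, and the other members ranked from 10133 to 15590.

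KO control 1 lay below both 3-week controls for every member except Vip. With it, the ages did not overlap for 1 member, Pvalb, which was higher at 3 weeks, against 38.2% of all genes. Without it, Gad1, Gad2, Slc32a1 and Lhx6 were called lower, 4 of 10 against 50.3% of all genes, with log2 differences of -0.78, -0.72, -0.85 and -0.47 and adjusted p = 0.00299, 9.19e-05, 0.00642 and 0.00375 in limma. These 4 genes and Pvalb did not overlap between the ages without KO control 1, against 64.1% of all genes. Without either of the P209L controls the 3-week arm was 1 mouse, with the spread taken from the other groups. In these fits the log2 differences of Gad2 were -0.60 and -0.56 and its call was lost, as fewer of all genes were called too. The median of all genes was -0.12, and under median-of-ratios size factors, which set it to 0, the difference of Gad2 was -0.44 and that of Reln, 0.34, also passed (adjusted p = 0.0425).

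The mutant mice were then added to the controls of each age. The summed level of Gad1, Gad2 and Slc32a1 lay between 126 and 162 TPM in the 5 mice of 3 weeks and between 200.8 and 315 TPM in the 8-week mice, apart from KO control 1, which had 126 TPM. With all 5 mice of 3 weeks against all 12 mice of 8 weeks, Gad1, Gad2, Slc32a1 and Vip were called, with log2 differences of -0.73, -0.49, -0.80 and 0.36, against 57.7% of all genes. Vip was the only one of these that was higher at 3 weeks. Between the controls alone its difference was 0.23 and did not pass (adjusted p = 0.213 in limma). The pooled 8-week arm included the R206W mice, with a mean Vip of 45.2 TPM against 55.6 to 60.1 TPM in the other 8-week groups. The part of the R206W mice in the call of Vip was not tested. Markers of other neurons moved with the GABA genes between the ages. The summed level of the 6 glutamatergic genes was 1229 to 1583 TPM at 3 weeks and 1992 to 2646 TPM at 8 weeks without KO control 1, which had 1561 TPM. The 5 pan-neuronal genes summed to 2545 to 2990 TPM at 3 weeks and 4497 to 5543 TPM at 8 weeks without KO control 1, which had 3114 TPM. Their part in the difference of the GABA genes was not tested.

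**Figure D3:**
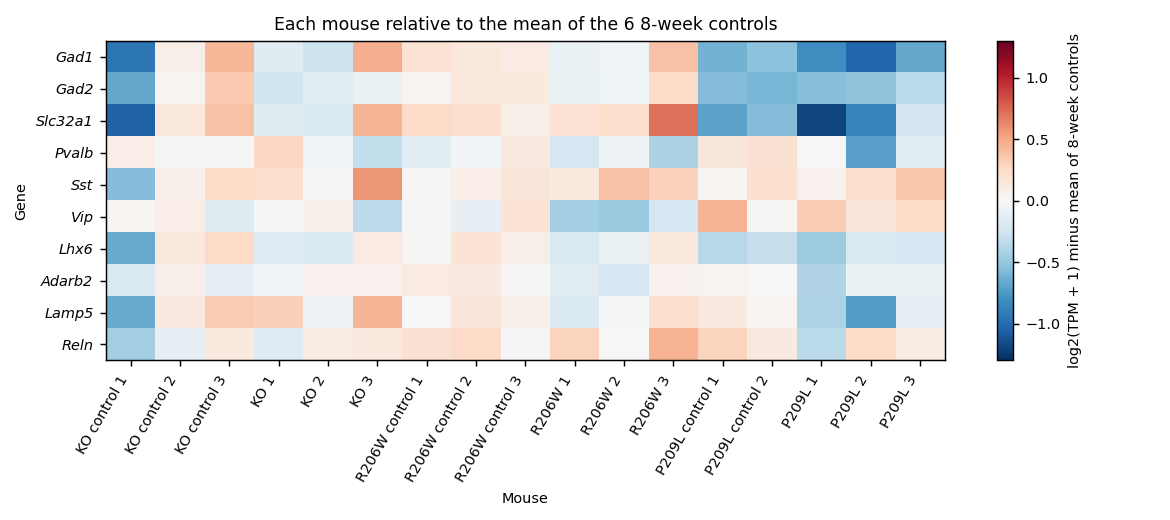
Log2(TPM + 1) of each gene (rows) in each mouse (columns) minus the mean of the 6 controls of 8 weeks, on a colour scale from blue (lower) to red (higher). Gad1, Gad2 and Slc32a1 are blue in all 5 mice of 3 weeks and in KO control 1, whereas Vip is blue in the 3 R206W mice and red or near white in the 5 mice of 3 weeks.

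Dividing each class gene by the summed level of Gad1, Gad2 and Slc32a1 in the same mouse removed the scale of the library. Per unit of this inhibitory sum, Sst was at 2.295 and 2.49 in P209L controls and from 1.295 to 1.85 in the 6 controls of 8 weeks. The ratio of Lamp5 was 2.11 and 1.89 against 1.115 to 1.498, that of Reln 0.236 and 0.1995 against 0.103 to 0.169, and that of Lhx6 0.052 and 0.052 against 0.0401 to 0.0502. For these 4 ratios the ages did not overlap, with 3-week mice higher and differences of log2 ratios of 0.71, 0.66, 0.80 and 0.23. The exact two-sided permutation p = 0.0714 of each was the smallest that 2 mice against 6 allow. The ratios of Pvalb, Vip and Adarb2 overlapped only through KO control 1, which had 0.949, 0.477 and 0.0452. All these ratios share 1 denominator, which was itself 153.6 and 160.5 TPM in P209L controls. It was 249.1 to 315.2 TPM in the 8-week controls without KO control 1. The levels of Sst, Lamp5, Reln and Lhx6 themselves differed by 0.12, 0.07, 0.20 and -0.33 on the log2 scale and did not pass. The 4 ratios are therefore not separate results.

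In R206W mice the ratio of Vip to the inhibitory sum was 0.19, 0.179 and 0.16 against 0.22, 0.2085 and 0.263 in controls. That of Adarb2 was 0.0258, 0.0237 and 0.0221 against 0.0271, 0.0277 and 0.0265. Both pairs of groups did not overlap, with differences of log2 ratios of -0.38 and -0.18 and an exact permutation p = 0.1, the smallest for 3 mice against 3. In P209L mice the ratios of Sst and Lhx6 were higher than in both controls (0.25 and 0.20 on the log2 scale) and that of Lamp5 was lower (-0.33), each with an exact permutation p = 0.2. Of the 8 ratios, 0 were apart between KO mice and their controls. Over the family of 32 comparisons, 0 had an adjusted p under 0.05, and the lowest was 0.49.

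**Figure D4:**
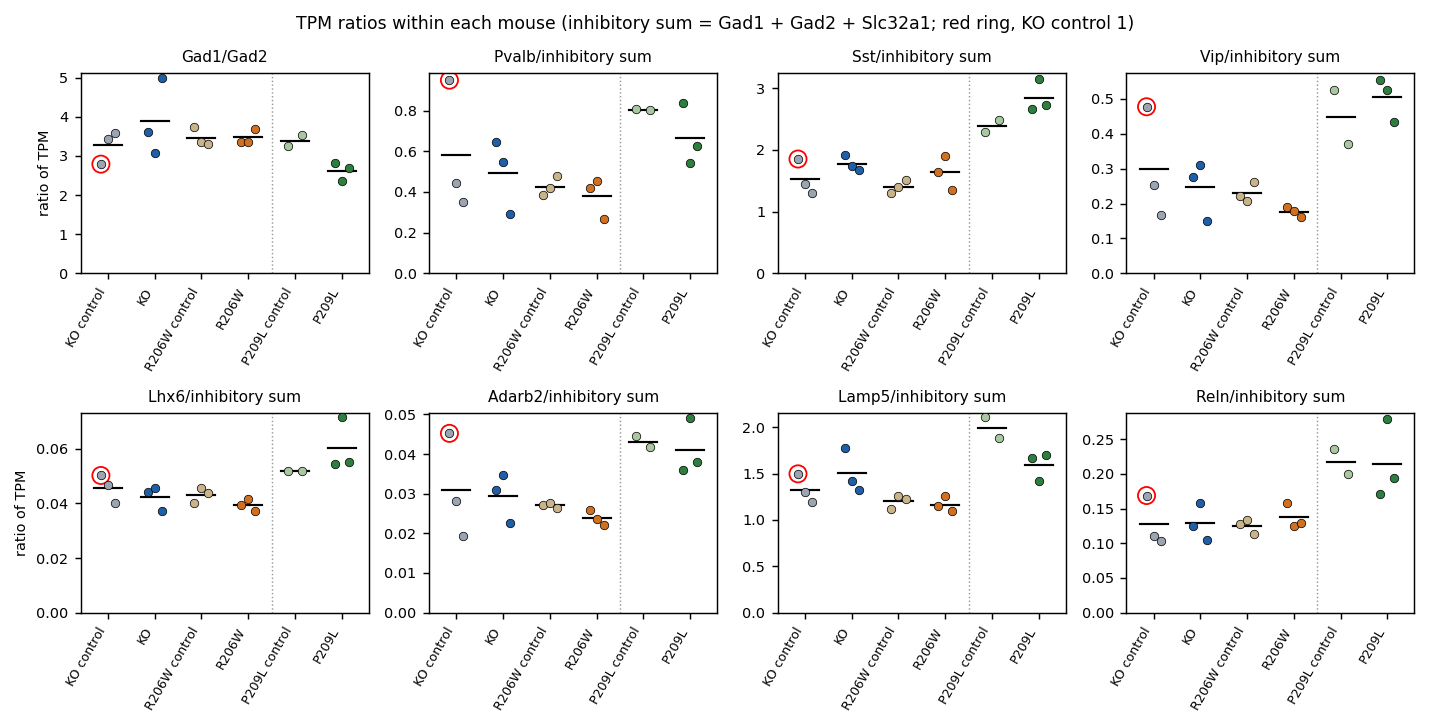
Ratio of TPM values within each mouse (vertical axes, starting at 0): Gad1 to Gad2, and each class gene to the inhibitory sum of Gad1, Gad2 and Slc32a1; points are mice, lines are group means and the red ring is KO control 1. P209L mice lie below their controls for Gad1 to Gad2 and above them for Sst, and R206W mice lie below their controls for Vip.

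A further 6 lists, without the members, held genes linked to GABA or to interneurons. They covered transport and breakdown of GABA, interneuron transcription factors, and genes of the PV, SST, VIP and LAMP5 classes. Not all of these genes are restricted to interneurons, and bulk tissue does not show which cells a transcript came from. The 6 lists held 50 genes, 44 of which were tested. In KO, R206W and P209L, 0 of the 44 were called, and 2, 0 and 3 had an unadjusted p under 0.05 in limma, beside 4.08%, 2.19% and 7.46% of all genes, so that these counts are near the background. The median log2 differences were 0.13, -0.0027 and -0.02. In KO the smallest p of the lists belonged to Cox6a2, a cytochrome c oxidase subunit of the PV class (0.38, adjusted p = 0.999 in limma), and the transcription factor Dlx6 (0.33). In R206W it belonged to Crhbp, which binds corticotropin-releasing hormone (0.24, adjusted p = 1). In P209L it belonged to Tac1, the precursor of substance P (log2 difference 0.80, SE 0.19, adjusted p = 0.155 in limma), Slc6a13, a GABA transporter (-0.61, adjusted p = 0.487), and Crhbp (0.40, adjusted p = 0.538).

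Between the ages, 3 of the 44 genes were called higher and 18 lower at 3 weeks, with a median log2 difference of -0.34. Beside them, 36.1% of all genes were called, with a median of -0.12 over all genes. Of the 16265 genes tested, 1837 were called higher and 4039 (24.8%) lower. The 21 calls became 26 without KO control 1, where 50.3% of all genes were called. They became 15 to 17 without another of the 8-week controls, where 30.9% to 34% of all genes were called. Without P209L control 1 or 2, which left 1 mouse at 3 weeks, fewer list genes were called, as among all genes. Of 5 genes of GABA transport and breakdown, 3 were lower, among them the transporter Slc6a11 (-0.71) and the breakdown enzyme Aldh5a1 (-0.42). Of 12 transcription factors tested, 6 were lower, led by Sox6 (-0.71) and Satb1 (-0.78), which act in cells of the medial eminence, and Maf (-0.60) and Prox1 (-0.41). In the PV list of 8, Cox6a2 was higher (0.71), and the neuregulin receptor Erbb4 (-1.06), the synaptotagmin Syt2 (-1.39) and the potassium channel Kcnc2 (-0.60) were lower. In the SST list of 6 tested, Nos1, which makes nitric oxide (-1.06), Elfn1 (-0.54) and Nxph1 (-0.33) were lower. Of 7 VIP genes tested, the neuropeptide gene Tac2 (0.73) and the calcium buffer Calb2 (0.56) were higher and the chemokine Cxcl14 (-0.50) was lower. Of 6 LAMP5 genes, Sv2c (-0.87) and Ndnf (-0.64) were lower. Of the 23 tested genes of the other lists, 1 was called higher, the olfactory bulb gene Doc2g (0.87), and 8 lower. These were 5 glutamatergic genes, among them Neurod6 (-0.67), Camk2a (-0.69) and Tbr1 (-0.78), and 3 pan-neuronal genes, Map2 (-0.93), Snap25 (-0.88) and Syt1 (-0.56). Of the striatal, cerebellar and muscle genes 0 were called, and 0 of the Cajal-Retzius or hypothalamus genes passed the filter.

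Within groups, the 10 genes did not vary from mouse to mouse as 1 set. Deviations of log2(TPM + 1) from the group means were correlated over the 17 mice, as a description, since the genes of a mouse share its library. Gad1, Gad2, Slc32a1, Lhx6, Sst and Lamp5 varied together, with Pearson's r between 0.80 and 0.93 in their 15 pairs and Spearman's rho between 0.67 and 0.87. Without KO control 1 these r ran from 0.46 to 0.82. Vip and Pvalb did not follow them, with r from -0.46 to 0.06 and, without KO control 1, from -0.62 to 0.22. Pvalb varied against Reln (r = -0.75, -0.80 without KO control 1) and Adarb2 (r = -0.65 in both).

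**Figure D5:**
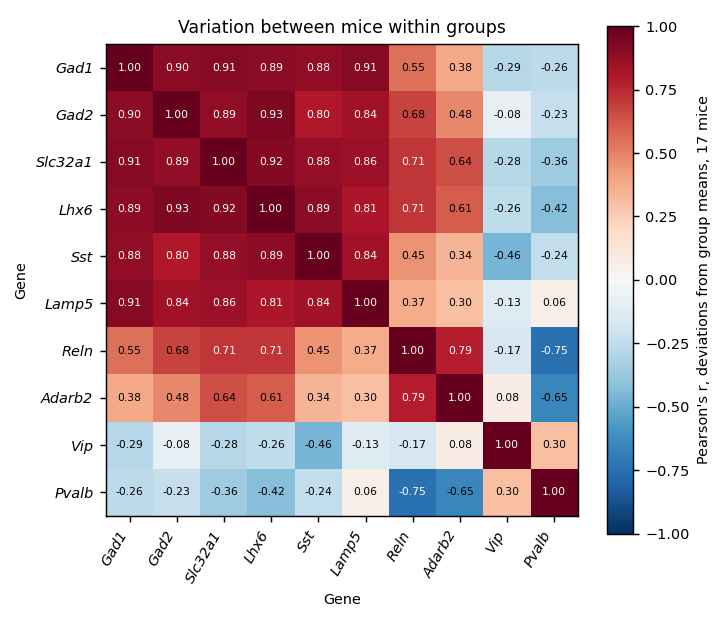
Pearson's r between genes for deviations of log2(TPM + 1) from the group means over 17 mice, from blue (-1) through white (0) to red (1). The 6 genes from Gad1 to Lamp5 form a red block with r from 0.80 to 0.93, and Vip and Pvalb stand outside it.

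Among all genes tested, those closest to Gad1 in these deviations were Map7d1, Znfx1 and Sh2b1 (r = 0.99 for each, n = 17 mice), and those closest to Sst were Crat, Gm16374 and Glmp (r = 0.97 for each). The closest to Pvalb were Lekr1, Pdzph1 and BC060293 (r = 0.92, 0.89 and 0.89), and the closest to Vip were Zfp868, Zup1 and Snrpd3 (r = 0.90, 0.87 and 0.87). None of these 12 genes is a member or in any of the lists, and without KO control 1 their r lay between 0.866 and 0.983.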

How the data were processed

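RNA of dissected cortex from 17 male mice was sequenced by the study as stranded total RNA libraries. The submitters' processing notes name Trim Galore, STAR 2.7.1a, GATK 4.0.4.0, RSEM and the mm10 build, with no roles given; the annotation is not given in the sources used here. The authors deposited TPM by gene symbol, so each column is a share of 1000000 and depth is unknown; no counting interval can be given, and a few abundant transcripts can lower all other genes of a mouse.

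Values were analysed as log2(TPM + 1), keeping 16265 genes whose mean TPM was 1 or more, in limma 3.58.1 (R 4.3.3): 1 mean per group in 1 fit, eBayes with trend=TRUE, two-sided moderated tests, and Benjamini-Hochberg adjustment over all genes of a contrast at 0.05. Ratios were compared by exact permutation tests (scipy 1.17.1), adjusted over 32. The test was checked on simulated data with independent noise per gene and planted log2 changes of 1 in well-expressed genes of low spread. The simulation held no outlying library and no variation shared between genes, so the check does not cover these or smaller changes. Sample weights came from arrayWeights (gene-by-gene method, since its default did not converge). Promoters were taken from RefSeq (GRCm38.p6), which held all 10 members, and gene positions from GENCODE M21 (GRCm38), matched by symbol.

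The members and the 14 lists (92 genes, 67 tested) were chosen with earlier results of these data known. Named are all members, Hnrnph2, for a list up to 4 called genes with the smallest p or the 1 gene with the smallest p, and the 3 genes most like Gad1, Pvalb, Sst and Vip; some list genes under this rule are not reported here. Alternatives were a pseudocount of 0.1, no filter or a mean TPM of 5, median-of-ratios size factors, own groups only, a replicate block, robust=TRUE, sample weights, each mouse left out, all mice of each age, and Slc32a1 alone as denominator.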

Additional observations from a re-analysis of the deposited data

Results flagged for a closer look

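Among the 6 controls of 8 weeks, KO control 1 stood apart for 4 of the 10 genes by Dixon's gap test, in which the gap to the nearest mouse exceeded 0.625 of the range. Gad1 was at 82.1 TPM there, with a gap of 0.638 of the range, and the other 5 controls began at 167 TPM. Slc32a1 was at 14.45 TPM (gap 0.7), Sst at 233.4 TPM (gap 0.658) and Lhx6 at 6.33 TPM (gap 0.685). Gad2, at 29.4 TPM, came close with a gap of 0.622. Pvalb and Vip, at 119.6 and 60.2 TPM, were inside the range of the other controls. Chance flags about 1 in 20 such groups, 10 genes were examined, and the genes flagged vary together between mice. The same mouse had the highest share of mitochondrial transcripts, 20.1%, and its part in these values was not tested.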

How the results depend on the processing

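Of 2030 values recomputed under alternatives, 1892 kept their direction and their side of the threshold, or stayed within 1.5 times a count. For the 580 log2 differences of the members this held in 529 cases, and 35 turned in sign, all of them values that had not passed. Weighting of mice gave KO control 1 a weight of 0.0819, and 2 members were then called in KO, Gad2 (-0.29, adjusted p = 0.0411 in limma) and Lhx6 (-0.30, adjusted p = 0.0425), and 1 in R206W, Vip, with 13.1% and 0.916% of all genes called. Between the ages the count of 1 became 0 without a filter on low values, 0 with only the groups compared in the fit, 2 with size factors, 4 with weights and 4 with all mice of each age, where 7.75%, 26.6%, 44.1%, 58.2% and 57.7% of all genes were called. The adjusted p of Gad2 was 0.104 without the filter and 0.0926 with its own groups alone. Leaving out 1 control of 8 weeks at a time gave up to 4 members called between the ages, where 30.9% to 50.3% of all genes were called. The lists then had up to 4 calls for GABA transport, 8 for transcription factors, 5 for PV, 3 for SST, 4 for VIP, 2 for LAMP5 and 6 for glutamatergic genes. Transcription factors fell to 3 without KO control 2 or 3 or any R206W control, and SST to 1 without KO control 2 or R206W control 1 or 2. The counts were lowest without a P209L control, which left 1 mouse at 3 weeks. The cause of these changes in counts was not tested, except that own groups alone leave fewer mice to estimate the spread.

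Whether replicate numbers pair the mice could not be settled, since the deviations of the 2 or 3 mice of a group sum to 0. Same-numbered mice of a line and its controls had correlations of their deviations of 0.12, -0.06 and 0.33 in KO. In R206W these were -0.03, -0.03 and -0.11, and in P209L 0.08 and 0.0028. Different-numbered mice had values from -0.30 to 0.27 in KO, -0.08 to 0.10 in R206W and -0.08 to 0.08 in P209L. A replicate block left the counts of called members at 0 in each line and 1 between the ages. Among all genes it gave 1, 7, 25 and 5887 calls, against 1, 6, 16 and 5876 without it. Under the block, Sst in P209L was -0.001841 and Lhx6 -0.039.

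Values that turned in sign in KO under weights were Gad1 (-0.26), Slc32a1 (-0.29), Pvalb (0.19), Lhx6 (-0.30), Adarb2 (-0.047) and Reln (-0.018), and Lhx6 was -0.056 with size factors. With weights, Vip in P209L was -0.016, and between the ages Adarb2 was -0.04025 and Lamp5 -0.048. With all mice of each age these were -0.064 and -0.23. With Slc32a1 alone as denominator, the ratio of Sst in R206W was -0.0165, and that of Reln -0.053 in KO and -0.10 in R206W.

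Over single mice left out, in KO, Gad1 ran from -0.24 to 0.45, Gad2 from -0.35 to 0.15, Slc32a1 from -0.23 to 0.49, Pvalb from -0.19 to 0.10, Vip from -0.17 to 0.036 and Lhx6 from -0.27 to 0.18. In R206W, Gad1 ran from -0.21 to 0.023, Lamp5 from -0.17 to 0.026 and Reln from -0.0016 to 0.23. In P209L, Slc32a1 ran from -0.40 to 0.075, Sst from -0.0037 to 0.18, Vip from -0.20 to 0.23 and Lhx6 from -0.0076 to 0.13. Between the ages, Adarb2 ran from -0.0065 to 0.058 and Lamp5 from -0.077 to 0.17. Among log2 ratios to the inhibitory sum, Pvalb ran from -0.47 to 0.25 in KO and -0.34 to 0.039 in R206W, Vip from -0.57 to 0.19 in KO and -0.068 to 0.43 in P209L, and Adarb2 from -0.31 to 0.31 in KO and -0.22 to 0.0037 in P209L. That of Lamp5 ran from -0.10 to 0.0022 in R206W, and that of Reln from -0.12 to 0.26 in KO and -0.25 to 0.10 in P209L. Gad1 to Gad2 ran from -0.048 to 0.072 between the ages and -0.042 to 0.057 in R206W. Of 1098 list counts, 52 moved by more than 1.5 times; without the filter, calls between the ages were 0 for GABA transport, 2 for transcription factors and 1 each for the SST, VIP and LAMP5 lists. Depth is unknown from TPM, and 2 controls at 3 weeks limit every comparison that uses them.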
